A study of Homo sapiens with 9 samples.

Results

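HKC-8 cells that carried the Wnt1 plasmid and received KP6 were compared with HKC-8 cells that carried the Wnt1 plasmid alone. HKC-8 is an established human proximal tubular epithelial line, and KP6 is a peptide derived from the kidney protein Klotho. Of the 9 RNA-seq libraries of the study, 6 belong to this comparison: 3 labelled Wnt1 plasmid (Wnt1) and 3 labelled Wnt1 plasmid and KP6 (Wnt1_KP6). Cells of both groups carry the plasmid, so what they differ in, by the labels, is KP6. The other 3 libraries come from cells given the empty vector pcDNA3 (control), and their values stand beside some genes only to place the levels. The labels give neither a dose or duration of KP6 nor a statement that the replicates are separate cultures, so p-values measure the spread between these libraries, which may be technical.

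Wnt1 is a secreted ligand that stabilises beta-catenin, which enters the nucleus and acts with TCF/LEF factors on target genes. Klotho is a membrane protein of the renal tubule whose shed form binds Wnt ligands and restrains their signalling. ATF3, which the study's title names beside Wnt/beta-catenin and mitophagy, belongs to the immediate early genes. Such genes are transcribed within minutes of a stimulus from serum response factor, CREB and NF-kB sites, without new protein synthesis, and many encode transcription factors, phosphatases or RNA-binding proteins that end the response. Metallothioneins are small cysteine-rich proteins that bind zinc and copper and are transcribed from metal response elements by MTF1.

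Promoter sequence is shown for genes whose levels carry the results below. RefSeq promoters (GRCh38.p14) are given 5′ to 3′ on the gene's strand, 250 bases up to the annotated start, with motif matches on either strand in capitals. EGR1 (chr5:138465229-138465478, plus strand) encodes an immediate early zinc finger factor, and the capitals mark 2 CArG boxes, the element bound by serum response factor, beginning 105 and 83 bases before the start. NFKBIA (chr14:35404750-35404999, minus strand) encodes the NF-kB inhibitor IkB-alpha, and the capitals mark 1 match to an NF-kB consensus motif, read on the opposite strand. MT1X (chr16:56682220-56682469, plus strand) and MT2A (chr16:56608334-56608583, plus strand) encode metallothioneins, with 4 and 7 matches to the metal response core (TGCGCNC or TGCACNC) in capitals.
EGR1: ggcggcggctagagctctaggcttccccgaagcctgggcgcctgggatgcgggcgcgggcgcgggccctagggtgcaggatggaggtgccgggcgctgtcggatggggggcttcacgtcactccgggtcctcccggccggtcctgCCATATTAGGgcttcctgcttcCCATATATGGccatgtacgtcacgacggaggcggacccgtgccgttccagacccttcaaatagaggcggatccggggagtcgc
NFKBIA: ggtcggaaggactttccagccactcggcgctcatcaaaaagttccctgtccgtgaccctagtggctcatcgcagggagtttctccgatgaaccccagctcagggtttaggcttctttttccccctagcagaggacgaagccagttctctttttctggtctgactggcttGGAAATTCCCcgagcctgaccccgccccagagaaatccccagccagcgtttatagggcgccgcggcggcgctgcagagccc
MT1X: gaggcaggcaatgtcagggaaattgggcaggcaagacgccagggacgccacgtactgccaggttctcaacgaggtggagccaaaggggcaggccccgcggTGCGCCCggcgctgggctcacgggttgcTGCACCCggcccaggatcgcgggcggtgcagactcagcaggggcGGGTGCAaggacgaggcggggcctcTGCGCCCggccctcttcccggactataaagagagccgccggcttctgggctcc
MT2A: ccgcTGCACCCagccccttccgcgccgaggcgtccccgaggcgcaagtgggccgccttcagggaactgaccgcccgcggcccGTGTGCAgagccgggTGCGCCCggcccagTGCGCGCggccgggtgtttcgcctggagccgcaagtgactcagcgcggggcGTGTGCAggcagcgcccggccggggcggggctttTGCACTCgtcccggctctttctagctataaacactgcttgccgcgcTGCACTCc
The first pair of genes was higher and the second lower in libraries with KP6, in the replicates set out below.

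The 6 libraries held 21199078 to 27507623 expected counts each, and 13153 genes were tested. WNT1 had 0 counts in all 3 Wnt1 libraries and 1, 2 and 0 counts in the Wnt1_KP6 libraries, so the deposited counts give no check of the plasmid label. Of 36 proximal tubule markers 18 passed the filter on low counts, with PAX8 and GGT1 present and LRP2, AQP1, HNF4A and SLC34A1 at or near 0, so the line carries part of the labelled cell type's markers. Of 26 fibroblast, endothelial and leukocyte markers 5 passed it, and the summed level of the list was 52.2 to 76.8 CPM in Wnt1 and 56.5 to 76.7 CPM in Wnt1_KP6 libraries (CPM, counts scaled to library size with TMM factors). PDGFRA, KDR, EMCN, PTPRC and CD3E were listed at 0 in all 6. Of the 5 that passed, COL1A1 was at 14.7 to 19.1 CPM in Wnt1 and 15.9 to 22.8 CPM in Wnt1_KP6. ERG was at 2.75 to 3.16 CPM in Wnt1 and 3.04 to 3.47 CPM in Wnt1_KP6. Replicate 1 stood apart from replicates 2 and 3 in both groups. A chi-square over the genes' counts, divided by its degrees of freedom, was 3.45 between Wnt1 replicate 1 and Wnt1_KP6 replicate 1. Replicates 2 and 3 gave 3.09 within Wnt1 and 3.32 within Wnt1_KP6, and all other pairs of the 6 libraries gave 38.9 to 101.8. The 2 replicate 1 libraries thus differed from each other, with and without KP6, by about as much as replicates 2 and 3 of 1 group did. No deposited value shows whether a library received KP6, so the labels of replicate 1 could not be checked, and each pair 1 value below, those of the metallothioneins included, rests on them as given. The mitochondrial share of counts was 5.26% (Wnt1) and 5.72% (Wnt1_KP6) in replicate 1 but 7.01% to 7.90% in the remaining 4 libraries. All libraries carry the same batch label, so the labels give no batch that matches this division, and its part in the results was not tested.

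With all 3 replicates, no gene passed the threshold (edgeR, Benjamini-Hochberg adjusted p under 0.05), although 363 genes (2.76%) had an unadjusted p under 0.05. DESeq2 called 20 genes (0.152%), 18 higher (0.137%) and 2 lower (0.0152%) with KP6. With the replicate number as a block, edgeR called 0 and DESeq2 36 (0.274%), 32 higher (0.243%) and 4 lower (0.0304%). Without Wnt1_KP6 replicate 1, edgeR called 214 genes (1.61%), 185 higher (1.39%) and 29 lower (0.218%). The replicate pairs taken singly differed. Among 10588 genes at 5 CPM or more, the log2 difference between the Wnt1_KP6 and the Wnt1 library had an SD of 0.13 in pair 1, 0.35 in pair 2 and 0.35 in pair 3. A difference of at least 1 log2 unit was seen for 7 of these genes in pair 1, 196 in pair 2 and 174 in pair 3. Across these genes, which are not independent replicates, the differences of pairs 2 and 3 had a Pearson correlation of 0.84, whereas pair 1 had one of -0.07 with pair 2 and of -0.15 with pair 3. In replicates 2 and 3 alone, edgeR called 1110 genes (8.44%), 780 higher (5.93% of genes tested) and 330 lower (2.51%). DESeq2 called 962 there (7.31%), 738 higher (5.61%) and 224 lower (1.70%), with 724 and 216 in common with edgeR. Each of these calls compares 2 libraries with 2, and the libraries within a group were close.

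The change with KP6 was itself tested for a difference between replicate 1 and replicates 2 and 3, and 466 genes (3.54%) passed, 408 (3.10%) with the more positive value in replicates 2 and 3 and 58 (0.441%) with the more negative. Replicate 1 is 1 library per group, so the spread in this test comes from replicates 2 and 3 alone and replicate 1 is assumed to vary like them. The test also uses the replicate 2 and 3 values behind the calls above, so members that pass both are not supported independently. The count ran from 273 to 1178 in the alternatives tried. Of the 780 genes that rose in replicates 2 and 3, 402 also passed this test, and 284 lay above 0 in pair 1, where their median difference was -0.04 log2 against 0.60 in replicates 2 and 3. Over all 13153 genes tested, 6571 lay above 0 in pair 1, a larger share. Of the 330 that fell, 56 passed and 124 lay below 0 in pair 1. Below, "rose" and "fell" refer to replicates 2 and 3 alone, and a log2 fold change stands with its standard error from that fit. The counts of list members that rose or fell are to be read against the 5.93% and 2.51% of all genes.

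**Figure D1:**
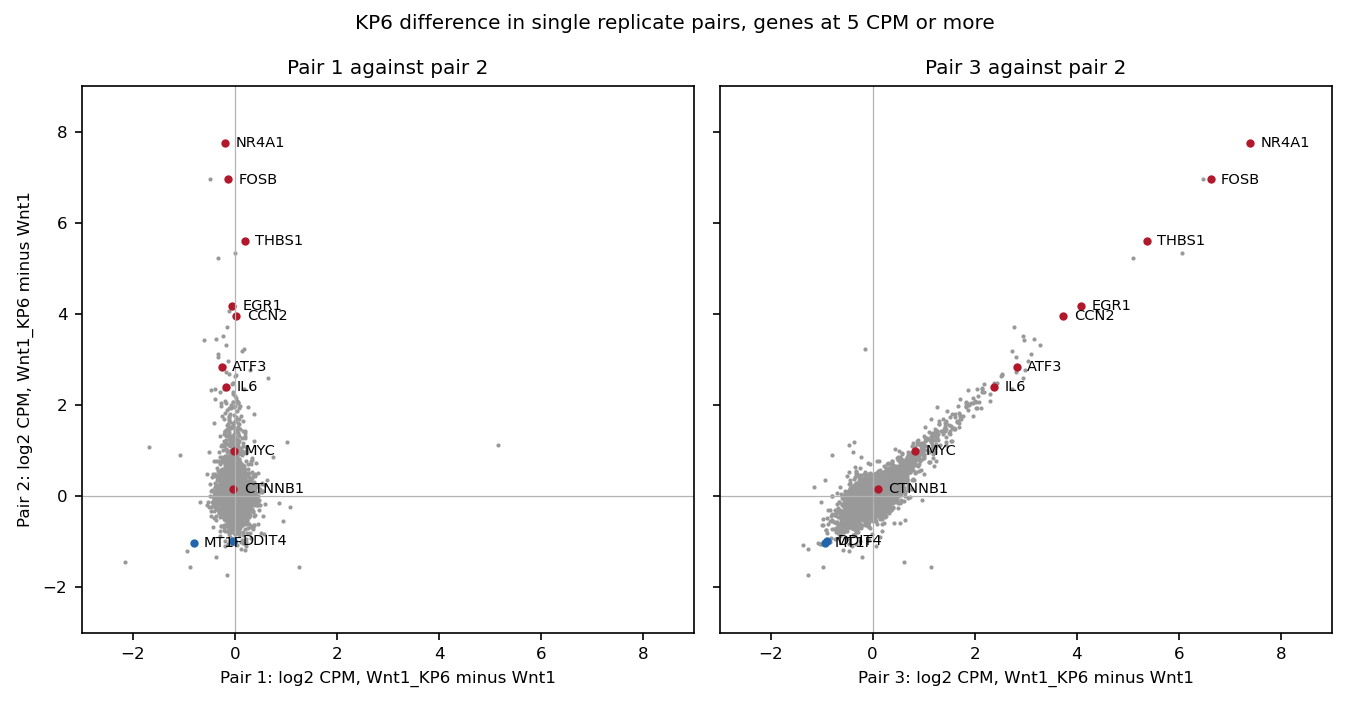
Each point is a gene at 5 CPM or more. The vertical axis is the log2 CPM difference between Wnt1_KP6 and Wnt1 in replicate pair 2, and the horizontal axis is the same difference in pair 1 (left) or pair 3 (right). Named genes are red where higher and blue where lower in pair 2. Genes such as NR4A1 and THBS1 lie near 0 in pair 1 and far from it in pairs 2 and 3, and MT1F lies below 0 in all 3.

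Immediate early transcription factors were 7 of the 10 protein-coding genes at 5 CPM or more with the largest rises. Of 28 tested members of the immediate early and AP-1 list, 27 rose and 0 fell, and 25 passed the test of the difference from replicate 1, with the limits given above. The list's median difference was -0.06 log2 in pair 1, 1.97 in pair 2 and 1.74 in pair 3, against 0.00 in each pair over all genes tested. NR4A1, an orphan nuclear receptor (hg38 chromosome 12, 52022832 to 52059507), was at 3.62, 1.85 and 2.29 CPM in Wnt1 replicates 1, 2 and 3 and at 3.15, 416 and 401 CPM in Wnt1_KP6. It was thus at the Wnt1 level in Wnt1_KP6 replicate 1 and above every other library in replicates 2 and 3, where its log2 fold change was 7.61 ± 0.11 (adjusted p = 1.0e-14). Its relatives NR4A3 (2.59, 1.57 and 2.34 CPM in Wnt1, 1.83, 206 and 214 in Wnt1_KP6) and NR4A2 (4.58, 3.47 and 3.59, then 3.63, 133 and 127) followed the same order.

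The AP-1 subunit FOSB was at 2.63, 6.74 and 7.59 CPM in Wnt1 and 2.39, 844 and 755 CPM in Wnt1_KP6, a rise of 6.79 ± 0.11 log2 units in replicates 2 and 3. FOS, its better known relative, was at 6.10, 5.79 and 4.76 CPM in Wnt1 and 5.62, 97.9 and 101 CPM in Wnt1_KP6 (4.24 ± 0.11). EGR1 was at 16.5, 37.9 and 40.9 CPM in Wnt1 and 15.9, 689 and 698 CPM in Wnt1_KP6 (4.13 ± 0.12). For all 3 genes Wnt1_KP6 replicate 1 was below every Wnt1 library or within their range, and the other KP6 libraries were above all of them. EGR2, a relative of EGR1, was near the detection limit in 4 libraries (0.292 to 0.522 CPM) and at 24.1 and 24.8 CPM in Wnt1_KP6 replicates 2 and 3.

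ATF3 (hg38 chromosome 1, 212565334 to 212620777), a stress-induced member of the ATF/CREB family, was at 30.3, 93.9 and 93.4 CPM in Wnt1 and 25.4, 668 and 664 CPM in Wnt1_KP6. In replicates 2 and 3 it rose by 2.83 ± 0.06 log2 units (adjusted p = 8.2e-13), and pair 1 differed by -0.25. The difference between replicate 1 and the others had an adjusted p of 1.5e-09, on the spread of replicates 2 and 3. JUNB (149, 110 and 109 CPM in Wnt1, 150, 430 and 388 in Wnt1_KP6) and IER2 (68.2, 56.1 and 57.8, then 71.1, 232 and 225) were among the 3 members whose groups did not overlap over 3 replicates, because Wnt1_KP6 replicate 1 lay just above the highest Wnt1 library. IER2 is uncertain, since 30.8% of its exon bases lie opposite another gene and the counting is not stated to use strand. Lesser rises were those of BHLHE40, a repressor of clock genes (1.67 ± 0.07), and MYC, a growth regulator and Wnt target (0.91 ± 0.07). Of the promoters of genes that rose, 3.44% (of 639 found) held a CArG box within 250 bases before to 50 after the start, against 1.03% of 10490 tested genes and 1.29% of 27305 RefSeq promoters. The CREB/ATF motif TGACGTCA was in 6.26%, 3.14% and 1.98%, and the AP-1 motif TGACTCA in 6.10%, 3.04% and 4.92%, and these letters describe the windows only. The NF-kB motif shown for NFKBIA was in 1.10%, 0.191% and 0.161%. The CArG box was added after seeing the data, and the motif search was planned for the genes named by size, not for all genes that rose. Promoters were found for 8 of the 10 largest rises, and 0 held TGACGTCA, TGACTCA or this NF-kB motif and 1 held a CArG box. For the 10 largest that were higher in all 3 pairs, 9 promoters were found. Of these, 0 held TGACGTCA, TGACTCA or a CArG box and 1 held this NF-kB motif.

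**Figure D2:**
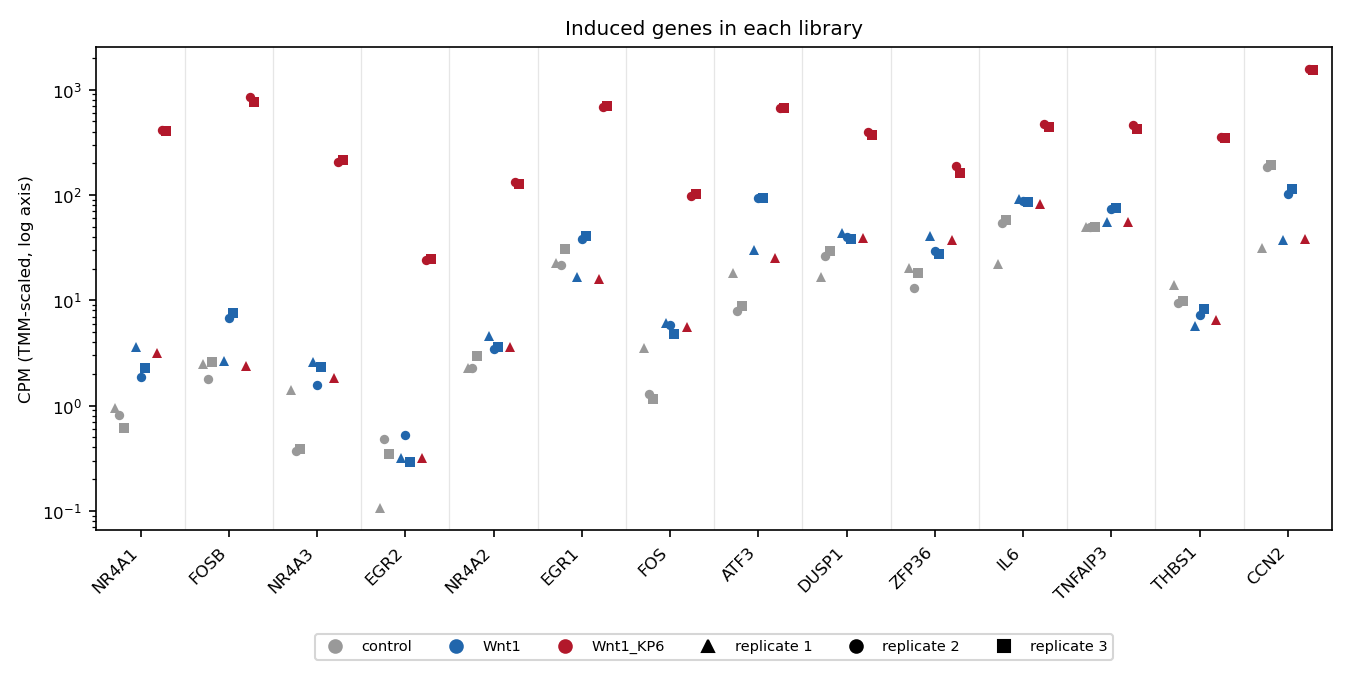
CPM on a log axis in each of the 9 libraries for 14 genes that rose in replicates 2 and 3, coloured by group and shaped by replicate. The circles and squares of Wnt1_KP6 (replicates 2 and 3) stand above all other libraries for each gene, and its triangle (replicate 1) lies among the Wnt1 libraries or close to them.

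Genes that shut off growth factor signalling rose with the factors above. Of 20 tested MAPK phosphatases and feedback genes 11 rose and 1, the ETS factor ETV5, fell (-0.30 ± 0.08), and the list's median was -0.09, 0.59 and 0.68 in pairs 1 to 3. DUSP1, a nuclear phosphatase of stress kinases and ERK, was at 43.5, 39.9 and 38.0 CPM in Wnt1 and 38.6, 399 and 371 CPM in Wnt1_KP6 (3.30 ± 0.08). DUSP5, which acts on ERK, was at 85.8, 33.0 and 38.7 CPM in Wnt1 and 67.9, 274 and 273 CPM in Wnt1_KP6 (2.93 ± 0.09). In both, replicate 1 showed the lower value with KP6 and replicates 2 and 3 the higher. SPRY2, a receptor tyrosine kinase antagonist, rose by 1.95 ± 0.09, and ERRFI1, an inhibitor of the EGF receptor, by 1.55 ± 0.07.

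Regulators of mRNA decay and other rapidly induced genes rose in 16 of 18 cases, with medians of -0.02, 1.23 and 1.16 in the 3 pairs. ZFP36, whose product binds AU-rich elements and destabilises cytokine mRNA, was at 40.7, 29.1 and 27.5 CPM in Wnt1 and 37.6, 187 and 161 CPM in Wnt1_KP6 (2.62 ± 0.12). SGK1, a kinase that regulates epithelial sodium transport, was at 31.7, 21.0 and 24.2 CPM in Wnt1 and 33.7, 82.9 and 77.0 CPM in Wnt1_KP6. Its groups did not overlap, and DESeq2 called it over all 9 libraries (adjusted p = 0.0143). MCL1, an anti-apoptotic BCL2 relative with a short-lived mRNA, rose by 1.43 ± 0.06 from 263 and 272 CPM to 736 and 713 CPM.

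Of 10 tested EGF family ligands and ERBB receptors 5 rose, and each of them is a ligand. HBEGF, a membrane-shed ligand, was at 7.31, 10.3 and 10.3 CPM in Wnt1 and 5.50, 31.3 and 33.5 CPM in Wnt1_KP6 (1.65 ± 0.11, with -0.41 in pair 1). AREG was at 26.1, 87.8 and 82.9 CPM in Wnt1 and 22.6, 187 and 195 CPM in Wnt1_KP6 (1.16 ± 0.07). EREG rose by 1.37 ± 0.14 and NRG1 by 0.34 ± 0.06. The receptor EGFR did not pass, with 587, 790 and 804 CPM in Wnt1 and 597, 823 and 818 CPM in Wnt1_KP6.

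Inflammatory genes rose in the same 2 libraries. Of 22 tested NF-kB subunits and feedback inhibitors 14 rose and 0 fell, with medians of 0.01, 0.57 and 0.46 in pairs 1 to 3. TNFAIP3, the ubiquitin-editing inhibitor A20, was at 55.2, 73.6 and 75.1 CPM in Wnt1 and 55.4, 460 and 427 CPM in Wnt1_KP6 (2.57 ± 0.07). NFKBIA, whose promoter is printed above, was at 137, 114 and 111 CPM in Wnt1 and 143, 473 and 452 CPM in Wnt1_KP6 (2.04 ± 0.07), with no overlap between the groups and a DESeq2 adjusted p of 0.0125 over all 9 libraries. The subunit gene REL rose by 1.53 ± 0.07 and the adhesion molecule ICAM1 by 1.28 ± 0.06, though 43.3% of the exon bases of REL are shared with another gene on its strand and 23.6% of those of ICAM1 lie opposite another gene.

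Of 15 tested inflammatory cytokines 9 rose, and of 11 chemokines 6. IL6 was at 92.3, 88.5 and 84.8 CPM in Wnt1 and 81.6, 468 and 441 CPM in Wnt1_KP6 (2.39 ± 0.07), with 20.7% of its exon bases opposite another gene. TNF was low, at 1.84, 2.56 and 2.92 CPM in Wnt1, and reached 24 and 19.8 CPM in Wnt1_KP6 replicates 2 and 3 with 2.03 in replicate 1. The vasoconstrictor gene EDN1 was likewise low in Wnt1 (1.03, 2.09 and 1.84 CPM) and stood at 0.797, 18.7 and 16.3 CPM in Wnt1_KP6. CXCL8, a neutrophil attractant, was at 119, 172 and 148 CPM in Wnt1 and 104, 729 and 728 CPM in Wnt1_KP6 (2.18 ± 0.08). CCL20, an attractant of CCR6-bearing lymphocytes, rose by 1.86 ± 0.08 and did not overlap between the groups, with 51.4 CPM in Wnt1_KP6 replicate 1 against 47.5 in the highest Wnt1 library. CXCL2 rose by 1.76 ± 0.08 and CCL2, a monocyte attractant, by 1.69 ± 0.10.

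Interferon-stimulated genes did not share this direction. Of 42 tested, 2 rose (IRF1 and OASL) and 7 fell, with medians of 0.01, -0.20 and -0.22 in pairs 1 to 3. IRF1, a transcription factor that NF-kB also induces, was at 44.9, 31.0 and 31.8 CPM in Wnt1 and 45, 72.5 and 71.3 CPM in Wnt1_KP6 (1.19 ± 0.09), with 22.0% of its exon bases opposite another gene. IFIT3, an antiviral effector, was at 169, 63.7 and 68.1 CPM in Wnt1 and 175, 42.5 and 44.2 CPM in Wnt1_KP6, and fell by 0.61 ± 0.08 log2 units. Replicate 1 held higher levels of IFIT3 than the other replicates in both groups. OASL rose by 0.67 ± 0.10 and STAT2, part of the interferon signal, was at -0.29 ± 0.07 (adjusted p = 0.021).

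Genes of matricellular proteins and of TGF-beta and YAP responses changed in part. THBS1, which encodes an activator of latent TGF-beta, was at 5.68, 7.27 and 8.22 CPM in Wnt1 and 6.49, 358 and 345 CPM in Wnt1_KP6 (5.50 ± 0.09). CCN2, the connective tissue growth factor, was at 37.3, 101 and 115 CPM in Wnt1 and 38.0, 1570 and 1530 CPM in Wnt1_KP6 (3.84 ± 0.07). In pair 1 the 2 genes differed by 0.19 and 0.03. CCN1 rose by 2.25 ± 0.08 and F3, the tissue factor of coagulation, by 2.86 ± 0.08. In all, 11 of 25 tested YAP and TEAD targets rose and 0 fell.

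Of 35 tested TGF-beta ligands, receptors and SMAD genes 10 rose and 2 fell. INHBA, the activin A subunit, was at 36.7, 86.7 and 74.5 CPM in Wnt1 and 27.8, 444 and 496 CPM in Wnt1_KP6 (2.54 ± 0.09). ID3, an inhibitor of helix-loop-helix factors, was at 6.92, 10.4 and 12.2 CPM in Wnt1 and 4.54, 112 and 95.6 CPM in Wnt1_KP6 (3.20 ± 0.12), and ID1 rose by 1.45 ± 0.08. SMAD7, the inhibitory SMAD, rose by 1.05 ± 0.09. Control libraries, which are the reference of another comparison with the same Wnt1 libraries, were high for several of these genes: ID3 was at 4.5, 118 and 141 CPM in control and INHBA at 15.4, 324 and 279 CPM. In replicates 2 and 3, Wnt1 thus lay below both other groups for these 2 genes, and in replicate 1 all 3 groups were low.

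Of 28 tested matrix and fibrosis genes 4 rose, PDGFB, TAGLN and LOX among them, and 0 fell. PDGFB, a mitogen for mesenchymal cells, rose by 1.54 ± 0.10, the actin-binding TAGLN by 1.39 ± 0.13 and the collagen crosslinker LOX by 0.26 ± 0.07. TAGLN was at 3.94 and 4.14 CPM in replicate 1 of Wnt1 and Wnt1_KP6 and at 25 to 81.3 CPM in the other 4 libraries.

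Several genes of p53, survival and cell cycle control changed. Of 30 tested p53 targets 12 rose and 0 fell. CDKN1A, the p21 inhibitor of cyclin-dependent kinases, was at 53.7, 63.7 and 69.0 CPM in Wnt1 and 54.3, 211 and 196 CPM in Wnt1_KP6 (1.62 ± 0.08). PLK3, a stress-responsive kinase, rose by 2.32 ± 0.11 and PLK2 by 0.94 ± 0.06. WEE1, the kinase that holds CDK1 inactive, was at 52.6, 50.7 and 49.3 CPM in Wnt1 and 53.3, 163 and 162 CPM in Wnt1_KP6 (1.70 ± 0.07). In the other direction, CDKN1B, the p27 inhibitor, fell by 0.71 ± 0.08 log2 units and CCNF, a cyclin of a ubiquitin ligase, by 0.98 ± 0.09. CCNF was at 48.0, 45.5 and 46.8 CPM in Wnt1 and 45.5, 22.6 and 24.1 CPM in Wnt1_KP6. Of 49 tested G2/M and mitosis genes 4 rose, KIF23 by 0.49 ± 0.07 and ECT2 by 0.42 ± 0.06 among them, and 3 fell, with MKI67 at -0.34 ± 0.06. DDIT4, an inhibitor of mTORC1, fell from 131 and 120 CPM to 65.9 and 64.7 CPM (-0.94 ± 0.07), with 346 and 335 CPM in replicate 1, and 41.2% of its exon bases lie opposite another gene.

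**Figure D3:**
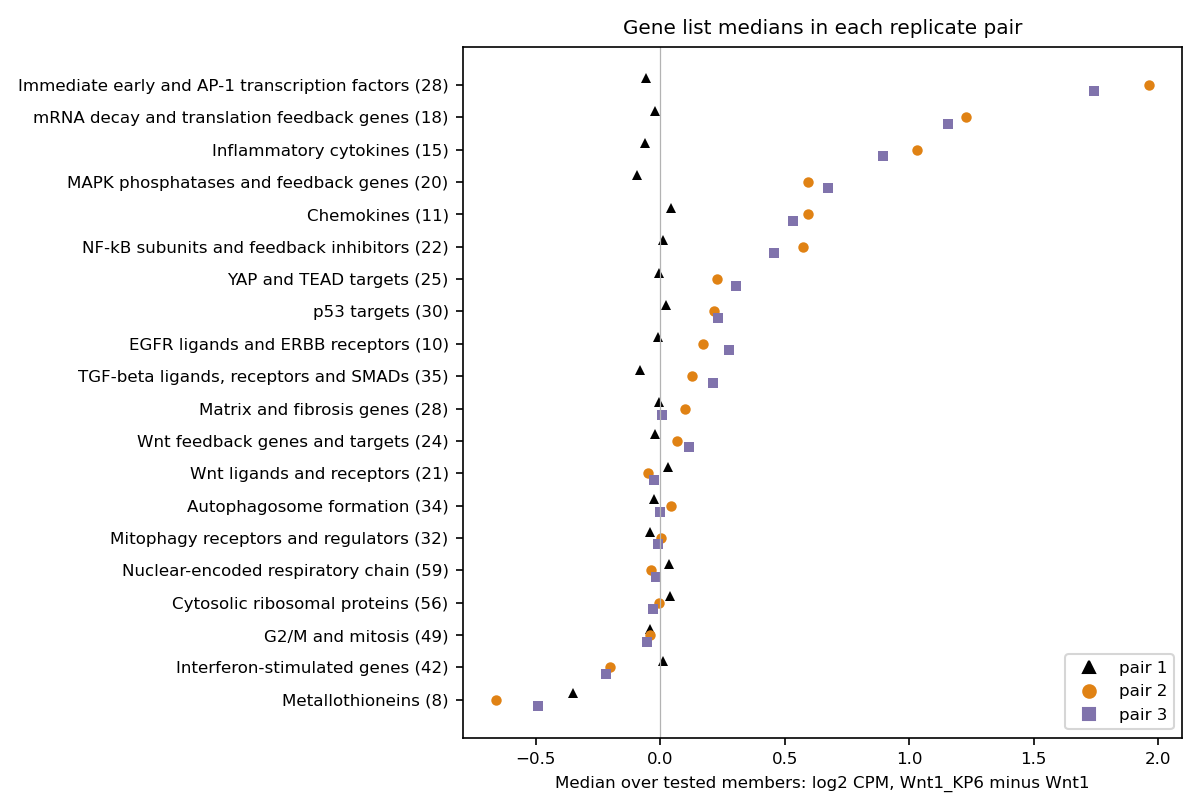
Median log2 CPM difference (Wnt1_KP6 minus Wnt1) over the tested members of 20 gene lists, in pair 1 (triangles), pair 2 (circles) and pair 3 (squares), with the number of tested members in brackets. Immediate early genes have medians of 1.97 and 1.74 in pairs 2 and 3 and of -0.06 in pair 1, and the median of the metallothionein list lies below 0 in all 3 pairs. That list's 8 tested members include genes other than the 6 metallothioneins. In replicates 2 and 3, 6 of the 8 fell, 1 rose and 2 lay above 0.

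Metallothioneins were lower with KP6 in each of the 3 replicate pairs, replicate 1 included. All 6 metallothionein genes that passed the filter (MT1E, MT1F, MT1G, MT1M, MT1X and MT2A) fell in replicates 2 and 3, and all 6 were also lower in pair 1. MT1F (hg38 chromosome 16, 56657694 to 56660698) was at 17.2, 24.9 and 25.7 CPM in Wnt1 and 9.76, 12.1 and 13.4 CPM in Wnt1_KP6, a log2 difference of -0.81, -1.03 and -0.94 in pairs 1 to 3. Over all 9 libraries its log2 fold change was -0.94 ± 0.19, with an adjusted p of 1 in edgeR, 0.185 in edgeR with the replicate block and 0.0125 in DESeq2. MT1X, whose promoter holds 4 metal response matches, was at 18.9, 23 and 21 CPM in Wnt1 and 15.4, 12.5 and 13.5 CPM in Wnt1_KP6 (-0.77 ± 0.10 in replicates 2 and 3). For both genes every Wnt1_KP6 library lay below every Wnt1 library. The metal response core is short: TGCGCNC was in 31.2% and TGCACNC in 11.4% of the promoters of 10490 tested genes.

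MT2A, the family member with the highest counts here, named after its values were seen, was at 668, 626 and 629 CPM in Wnt1 and 529, 507 and 478 CPM in Wnt1_KP6 (-0.35 ± 0.08). MT1E was at 190, 183 and 185 CPM in Wnt1 and 148, 135 and 129 CPM in Wnt1_KP6 (-0.48 ± 0.06). MT1M was at 5.39, 9.07 and 7.43 CPM in Wnt1 and 2.79, 3.86 and 5.36 CPM in Wnt1_KP6 (-0.84 ± 0.19). Only MT1G overlapped, at 5.18, 13.9 and 13.7 CPM in Wnt1 and 2.79, 4.69 and 6.97 CPM in Wnt1_KP6 (-1.25 ± 0.16), because its level differed between replicates in both groups. Groups that did not overlap, with Wnt1_KP6 lower, were seen for 5 of these 6 genes and for 387 (2.94%) of all genes tested. For MT1M the groups were separated only by 5.36 CPM in Wnt1_KP6 replicate 3 against 5.39 CPM in Wnt1 replicate 1. No metallothionein passed the test of a difference between replicate 1 and replicates 2 and 3 (MT1F, adjusted p = 0.82), which does not show that the replicates changed alike. MTF1, the factor that acts on their promoters, was at 49.6, 47.4 and 47.8 CPM in Wnt1 and 46.8, 57.4 and 57.5 CPM in Wnt1_KP6, a log2 fold change of 0.27 ± 0.08 in replicates 2 and 3 that edgeR called (adjusted p = 0.042) and DESeq2 did not (adjusted p = 0.060). Metallothionein genes are near-identical paralogs that share reads, so how the counts divide among them is uncertain. The 6 genes are thus not separate observations.

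**Figure D4:**
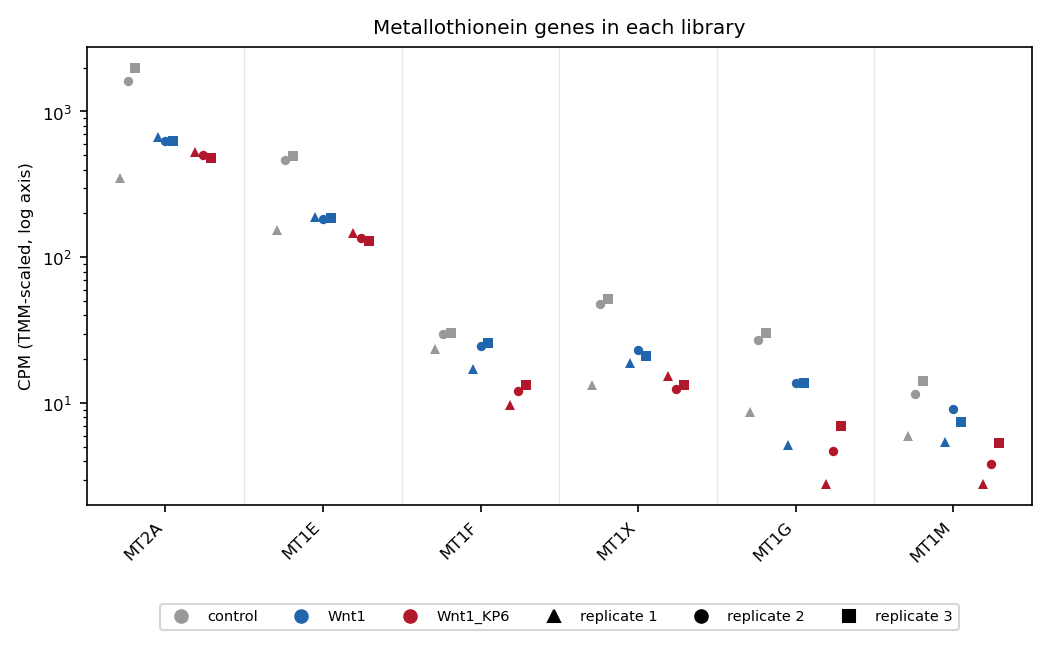
CPM on a log axis of the 6 tested metallothionein genes in each of the 9 libraries, coloured by group and shaped by replicate. Wnt1_KP6 libraries lie below the Wnt1 libraries of the same replicate for every gene, and control replicates 2 and 3 lie highest.

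Genes of the processes in the study's title were counted list by list. Of 21 tested Wnt ligands and receptors 0 rose or fell, and CTNNB1, which encodes beta-catenin, was at 311, 259 and 268 CPM in Wnt1 and 305, 288 and 286 CPM in Wnt1_KP6 (0.12 ± 0.06, adjusted p = 0.31). Of 25 genes of the beta-catenin complex and Dishevelled, CTNND1 (p120 catenin, 0.41 ± 0.06) and CSNK1E (casein kinase 1 epsilon, 0.44 ± 0.08, 21.1% of its exon bases shared with a gene on its strand) rose and PYGO2, a nuclear co-activator of beta-catenin, fell in edgeR (-0.33 ± 0.10, adjusted p = 0.047) but not in DESeq2 (adjusted p = 0.053). Of 24 Wnt feedback genes and targets 7 rose and 1 fell. SOX9, a progenitor and repair factor of the tubule, was at 18.7, 8.12 and 7.22 CPM in Wnt1 and 17.7, 31.3 and 29.5 CPM in Wnt1_KP6 (1.99 ± 0.12). MYC, described above, is among the 7 and responds to many other signals. The member that fell, AXIN2, encodes a scaffold of beta-catenin degradation and is widely used as a readout of the pathway. It was near the detection limit, at 2.31, 0.807 and 0.959 CPM in Wnt1 and 1.75, 0.304 and 0.179 CPM in Wnt1_KP6 (-1.85 ± 0.48, adjusted p = 0.026 in edgeR), the DESeq2 adjusted p there was 0.119, and 25.2% of its exon bases are shared with another gene on its strand. DKK1, a secreted Wnt inhibitor that is also a target, rose by 0.86 ± 0.13. AXIN2 and DKK1 were chosen after their values were seen. KL, the gene of Klotho itself, was at 1.56, 2.94 and 2.17 CPM in Wnt1 and 1.71, 2.87 and 3.93 CPM in Wnt1_KP6 (0.41 ± 0.23, adjusted p = 0.37).

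Among 32 mitophagy receptors and regulators 1 rose, TBK1, the kinase that phosphorylates autophagy receptors (0.29 ± 0.08), and 0 fell. The list's medians were -0.04, 0.00 and -0.01 in the 3 pairs. SQSTM1, the abundant receptor p62, which was chosen after its values were seen, was at 2018, 2710 and 2670 CPM in Wnt1 and 1893, 2980 and 2751 CPM in Wnt1_KP6 (0.09 ± 0.06, adjusted p = 0.52). Of 34 genes of autophagosome formation 5 rose and 0 fell. VMP1, a scramblase of the phagophore, was at 165, 125 and 123 CPM in Wnt1 and 162, 228 and 246 CPM in Wnt1_KP6 (0.93 ± 0.07). TP53INP2 rose by 1.34 ± 0.11, the LC3 family genes MAP1LC3B and GABARAPL1 by 0.59 ± 0.07 and 0.58 ± 0.07, and RB1CC1, of the initiation complex, by 0.25 ± 0.07. Of 59 nuclear-encoded respiratory chain genes CYCS (0.40 ± 0.09) alone rose, and of 13 mitochondrially encoded and 56 ribosomal protein genes 0 rose or fell. Among the 18 tested proximal tubule markers LHX1 rose (0.47 ± 0.08).

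Genes with 1 direction in all 3 pairs and no overlap between the groups were taken by size over all replicates. Higher were PTX3, a soluble pattern recognition protein (2.00 ± 0.10), MYADM, a membrane protein (2.06 ± 0.10), and SERTAD1, a cell cycle regulator (4.51, 4.37 and 4.59 CPM in Wnt1, 5.18, 11.9 and 13.2 CPM in Wnt1_KP6), beside JUNB, IER2, NFKBIA, SGK1, CCL20, WEE1 and ID1. Their pair 1 differences were 0.01 to 0.20, which set the non-overlap but were small beside pairs 2 and 3. Lower were, beside metallothioneins, the lipoic acid synthase gene LIAS (10.5, 10.6 and 11.6 CPM in Wnt1, 7.89, 7.60 and 7.87 CPM in Wnt1_KP6) and ZNF273 (6.60, 6.36 and 6.13, then 4.86, 3.95 and 4.47), whose differences of -0.40, -0.47 and -0.56 (LIAS) and -0.43, -0.68 and -0.45 (ZNF273) were alike in the 3 pairs. C7orf25 and WDCP, lower by 0.28 and 0.04 in pair 1, were also in this group. C7orf25 is uncertain, since 61.1% of its exon bases are shared with another gene on its strand. Over all genes tested, 377 (2.87%) were higher and 387 (2.94%) lower without overlap.

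Some genes moved one way in pair 1 and the other way in pairs 2 and 3. ADAMTS15, a proteoglycan-cleaving protease, was at 13.9, 59.4 and 63.5 CPM in Wnt1 and 19.8, 34.0 and 39.9 CPM in Wnt1_KP6, a difference of 0.51 in pair 1 and of -0.80 and -0.67 in pairs 2 and 3. The zinc finger gene ZNF703 was at 0.32, -0.92 and -0.81. KALRN, an exchange factor for small GTPases, was at 5.96, 7.17 and 9.72 CPM in Wnt1 and 4.30, 36.5 and 35.6 CPM in Wnt1_KP6, a difference of -0.46 in pair 1 and of 2.33 and 1.86 in the others. The differences of these 3 genes between replicate 1 and replicates 2 and 3 passed the test (adjusted p = 0.0020, 0.012 and 2.0e-05), and their opposite signs are part of how they were chosen. OTX1, a homeobox gene (-1.53 ± 0.19), PARS2, a mitochondrial tRNA synthetase (-1.05 ± 0.15), and ZNF500 (-1.23 ± 0.16) were among the 10 largest falls at 5 CPM or more, as were MT1G and MT1F, and SLFNL1 (3.32 ± 0.13) was among the 10 largest rises, with 30.1% of its exon bases opposite another gene.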

How the data were processed

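HKC-8 mRNA, enriched on oligo(dT) per the labels' protocols, was sequenced in 9 libraries. The authors deposited 1 table of 20323 genes with an expected count (an estimated count that need not be whole) and a length-scaled FPKM value per gene and library, per the file headers. Build hg38 and the tools RSEM, HISAT2, StringTie 1.3.1, fastp 0.18.0 and Bowtie2 2.2.8 are named in the submitters' processing notes, and the annotation is not given in the sources used here. Of all gene IDs 20171 matched GENCODE on GRCh38, the same assembly.

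Expected counts were rounded and filtered with filterByExpr (minimum count 10, minimum total 15). edgeR 4.0.16 (R 4.3.3, limma 3.58.1) gave TMM scaling and a two-sided robust quasi-likelihood test over 9 libraries with 3 group means and no block, with Benjamini-Hochberg adjustment over 13153 genes and a threshold of 0.05. The fit on replicates 2 and 3 holds 6 libraries, 2 of them control. The difference between replicate 1 and the others was an interaction term in 9 libraries. Differences in single pairs are of log2 CPM (prior count 2), with no test. DESeq2 1.42.0 was an alternative. FPKM was used only to check markers. The tests were tried on simulated counts with known changes.

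Numbers in the titles were taken to pair libraries: deviations from group means correlated at 0.67, 0.41 and 0.41 in same-numbered pairs. Among replicates 2 and 3, different numbers gave 0.39 and 0.40. These values do not decide how replicates 2 and 3 pair, because both replicates deviate from the group mean mainly by their distance from replicate 1. Pairs 2 and 3 thus rest on the title numbers alone.

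Members and the 46 gene lists were chosen with earlier results of these data known. Genes were named by rule: WNT1, ATF3, CTNNB1 and KL; the 10 largest per direction without overlap and with 1 sign in 3 pairs; the 10 largest per direction called in replicates 2 and 3; of each list the 4 lowest p in either fit; and 6 per direction of opposite sign in pair 1 (at least 5 CPM). From these a part was taken. ETV5, EGFR, RB1CC1, MT2A, AXIN2, DKK1, SQSTM1, CIART and AC079594.2 were chosen after their values were seen. Promoters were matched by symbol, and the CArG box was added to the motifs after seeing the data. Close paralogs, overlapping genes and, without strand, antisense partners are uncertain.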

Additional observations from a re-analysis of the deposited data

How the results depend on the processing

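The count of genes called over 9 libraries (0 with edgeR) was 0 with relative log expression scaling, with no count filter, with the 6 libraries alone and with the replicate block, although 493 genes had an unadjusted p under 0.05 with the block. It was 20 with DESeq2, 36 with DESeq2 and the replicate block, 1110 in replicates 2 and 3 and 962 in these with DESeq2. DESeq2 with the block and on replicates 2 and 3 was chosen after seeing the data. Leaving out 1 library gave 0 to 214, and the 214 (185 higher, 29 lower) came without Wnt1_KP6 replicate 1. Genes whose change differed between replicate 1 and the others (466) were 377 with DESeq2, 461 with the other scaling, 512 with no filter and 1178 with the 6 libraries, and leaving out 1 library gave 273 (without Wnt1_KP6 replicate 2) to 1143 (without control replicate 2). Without control replicate 3 the count was 1130. The cause of these shifts was not tested. Of the named genes followed, 7 turned sign over 9 libraries without 1 library, and their fold changes then ranged from -1.61 to 0.308 (DDIT4), -1.21 to 0.408 (IFIT3), -0.628 to 0.158 (ETV5), -0.535 to 1.45 (OASL), -0.0871 to 0.217 (SQSTM1), -0.0954 to 0.176 (EGFR) and -0.0999 to 0.469 (LOX). The replicate block changed no call in edgeR. Depth limited genes near 1 CPM, such as AXIN2 and EGR2.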

Other observations

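Part of the sterol, clock and stress genes also moved in replicates 2 and 3. HMGCS1, an early enzyme of cholesterol synthesis, and INSIG1, which retains the sterol sensor in the endoplasmic reticulum, rose by 0.94 ± 0.07 and 0.64 ± 0.06 log2 units. In all 7 of 26 tested cholesterol genes rose and 0 fell, against 5.93% and 2.51% of all genes. PER1, a clock repressor that is also an immediate early gene, was at 24.3, 30.4 and 31.7 CPM in Wnt1 and 24.8, 192 and 183 CPM in Wnt1_KP6. Of 20 tested clock genes 6 rose and 2 fell, HLF (-0.67 ± 0.11) and CIART (-0.58 ± 0.15). HLF differed by 0.36 in pair 1 and by -0.69 and -0.64 in pairs 2 and 3. CIART was chosen after its values were seen, and DESeq2 did not call it (adjusted p = 0.109). Of 38 tested genes of the integrated stress response 9 rose, with ATF4 at 0.35 ± 0.06 and STC2 at 0.79 ± 0.09, and 2 fell, DDIT4 and CBS. CBS, the cystathionine beta-synthase gene, was at 6.24, 2.37 and 2.00 CPM in Wnt1 and between 0.447 and 1.51 CPM in Wnt1_KP6, with no overlap, and its near-identical copy on the same chromosome makes the value uncertain. Its log2 difference was -1.99, -0.83 and -1.98 in pairs 1 to 3, and in replicates 2 and 3 its adjusted p was 0.043 in edgeR and 0.072 in DESeq2, which did not call it.

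The lowest p over all 9 libraries belonged to AC079594.2 (ENSG00000248710, hg38 chromosome 3, 160227454 to 160449829), a protein-coding gene model chosen after its values were seen. It was at 6.24, 6.51 and 6.97 CPM in Wnt1 and 2.95, 3.30 and 2.59 CPM in Wnt1_KP6, with no overlap, and its log2 fold change was -1.16 ± 0.19 (edgeR adjusted p = 1, DESeq2 adjusted p = 0.00203). For this gene the share of exon bases in common with other genes was not computed, so its count is uncertain.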
